A study of Mus musculus with 2 samples.

Results

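This account covers 8 mouse genes of the amyloid precursor and tau pathways: App, its relatives Aplp1 and Aplp2, the secretase genes Bace1, Psen2 and Ncstn, the BRI2 gene Itm2b, and the tau gene Mapt. They were chosen by symbol from the 19059 genes listed for 2 single-cell RNA libraries of mouse hippocampus, each symbol occurred in 1 row, and no synuclein gene is among them. Both libraries came from C57BL/6 wild-type mice that were 21 months old at the start; the study used both sexes, and the sex of the pooled mice is not given in the sources used here. The control library held the pooled hippocampi of 4 mice kept for 3 months on standard chow. The tomatidine library held those of 4 mice kept for 3 months on chow with 0.05% tomatidine, a steroidal aglycone from tomato. Whether the base chow was the same in both groups is not stated. Since mice were pooled, each group is 1 library, no spread between mice can be given, the groups were compared without a test, and a difference between the mice or in the making of the libraries cannot be told apart from a difference between the diets. Intervals below are exact, at 95%, and cover counting error only.

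The amyloid precursor protein is a single-pass membrane protein. BACE1, the beta-secretase, cuts it outside the membrane, and gamma-secretase then cuts the remaining stub within the membrane, which frees the amyloid-beta peptide. PSEN2 is a catalytic subunit of gamma-secretase and NCSTN (nicastrin) a subunit that holds the complex together. APLP1 and APLP2 have the same overall build as the precursor but lack the amyloid-beta stretch. BRI2, the product of Itm2b, is a membrane protein that binds the precursor and is itself the source of amyloid peptides in familial British and Danish dementia. Tau, the product of Mapt, binds microtubules in axons and forms the tangles of Alzheimer disease.

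The shared and the distinguishing stretches of the precursor family are shown because they set App, the source of amyloid-beta, apart from 2 genes that the assay counted alongside it. The sequences are from GENCODE transcripts for mm10, and each is on the minus strand of the genome, printed 5′ to 3′ as in the transcript. The App stretch at chr16:84962794-84965720 codes for the 42 residues of amyloid-beta and spans 2 exons; the capitals mark the first codon, just after the beta-secretase cut, and the last 3 codons, where gamma-secretase cuts vary.
App, amyloid-beta stretch: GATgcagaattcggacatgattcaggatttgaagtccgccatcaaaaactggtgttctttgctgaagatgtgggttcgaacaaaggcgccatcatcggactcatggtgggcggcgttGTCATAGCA
The ends of the coding sequences code for the tails inside the cell. They lie in 1 exon each, at chr16:84955334-84955399 for App, chr7:30435296-30435358 for Aplp1 and chr9:31150874-31150939 for Aplp2. The capitals mark the codons of the YENPTY sorting motif, which adaptor proteins bind.
App: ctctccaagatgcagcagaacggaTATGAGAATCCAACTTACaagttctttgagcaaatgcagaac
Aplp1: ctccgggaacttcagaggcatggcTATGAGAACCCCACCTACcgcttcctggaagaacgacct
Aplp2: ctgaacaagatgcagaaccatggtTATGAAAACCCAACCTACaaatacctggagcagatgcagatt
Aligned from the first base without gaps, App and Aplp2 shared 48 of 66 bases, App and Aplp1 36 of 63, and Aplp1 and Aplp2 38 of 63. App (ENSMUSG00000022892) covers 224.1 kb of chromosome 16 and has 6 coding transcripts in this annotation, and Mapt (ENSMUSG00000018411) covers 100.7 kb of chromosome 11 and has 8. A gene's count adds all its transcripts, so splice forms of App and the tau isoforms were not told apart, and levels are compared between cell classes for 1 gene and never between genes, since probes differ in number and efficiency.

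The files held 279525565 unique molecular identifiers (UMIs, tags that mark single molecules) in 15912 control cells and 259059908 in 15185 tomatidine cells. After filters on cells, 15115 control cells with a median of 7077 UMIs and 14502 tomatidine cells with a median of 7408 were kept. Clustering without the 8 genes gave 36 clusters, of which 25 were named from marker genes, and 9 classes had at least 50 cells in each library. Of the markers measured, at least 28 of 43 were 2-fold higher in the excitatory neuron-like cells of each library, and every marker was in the 6 other classes compared below. Libraries stood apart in composition: the oligodendrocyte-like share of cells was 20.3% in the control and 16.4% in the tomatidine library, that of choroid plexus-like cells 2.29% and 0.228%, and that of the 11 unnamed clusters 17.3% and 21.8%. Of the barcodes kept, 262 occurred in both libraries. Levels are in CPM, a gene's UMIs per 1000000 UMIs of the class, computed from UMIs summed per library and class.

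App, the precursor gene itself, had its highest level in oligodendrocyte-like cells, with 5990 CPM (5956 to 6024) in the control library and 5539 CPM (5502 to 5577) in the tomatidine library. Thalamic or other subcortical neuron-like cells followed with 3928 and 3886 CPM, and interneuron-like cells with 3206 and 2982 CPM. Endothelial-like cells had 2677 and 2768 CPM of App, and excitatory neuron-like cells 2484 and 2469 CPM. Each of these 5 classes was above the next in both libraries. OPC-like cells (oligodendrocyte precursors) had 2281 and 1590 CPM of App, and meningeal or fibroblast-like cells 1895 and 1710 CPM, so their order changed between the libraries. Lowest were astrocyte-like cells with 1247 and 1105 CPM and microglia-like cells with 976 and 1133 CPM, whose order changed as well. From microglia-like to oligodendrocyte-like cells the span of App was 6.13-fold in the control library and 4.89-fold in the tomatidine library. Per cell the order was another one: the mean was 53.8 and 50.4 App UMIs in an excitatory neuron-like cell and 38.5 and 35.2 in an oligodendrocyte-like cell. In the thalamic or other subcortical class it was 169 and 131 App UMIs. Means per cell also reflect depth. Median UMIs per cell were 15947 and 15066 in excitatory neuron-like and 5346 and 4907 in oligodendrocyte-like cells. In the thalamic or other subcortical class they were 42913 and 29087.

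Aplp1, the relative known for its expression in the nervous system, was concentrated most in oligodendrocyte-like cells, at 5071 CPM (5040 to 5103) in the control and 4896 CPM (4861 to 4932) in the tomatidine library. Excitatory neuron-like cells came next with 1464 and 1458 CPM of Aplp1. Microglia-like cells had the lowest level, 538 and 541 CPM, so the classes spanned 9.42-fold and 9.05-fold. Aplp2, the more widely expressed relative, was spread otherwise. Its highest levels were in the thalamic or other subcortical class, at 874 and 753 CPM, and in interneuron-like cells, at 744 and 762 CPM, and these classes changed places between the libraries. Oligodendrocyte-like cells had 696 and 624 CPM of Aplp2, and endothelial-like cells 626 and 673 CPM. Excitatory neuron-like cells, at 332 and 355 CPM, were below astrocyte-like cells, at 411 and 391 CPM, and only microglia-like cells, at 228 and 263 CPM, were lower among the 9 classes.

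Bace1, the beta-secretase gene, was highest in oligodendrocyte-like cells, with 183 CPM (177 to 189) and 165 CPM (159 to 172). OPC-like cells had 116 and 105 CPM of Bace1 and interneuron-like cells 116 and 104 CPM, levels that did not differ beyond their counting intervals. Excitatory neuron-like cells had 98.1 and 99.2 CPM, astrocyte-like cells 59.6 and 57.2 CPM, and endothelial-like cells 50.4 and 51.0 CPM. Microglia-like cells had 29.9 and 26.7 CPM of Bace1, from 93 and 73 UMIs. Psen2 was the gene with the narrowest range, 1.93-fold and 1.76-fold over the 9 classes. Its level was 55.4 and 56.9 CPM in oligodendrocyte-like cells, 50.3 and 57.4 CPM in interneuron-like cells, and 28.8 and 32.3 CPM in excitatory neuron-like cells. For Psen2 only excitatory neuron-like and astrocyte-like cells, the latter at 34.3 and 30.6 CPM, stood below the other 7 classes in both libraries. Ncstn, the nicastrin gene, was highest in microglia-like cells, at 194 CPM (178 to 210) and 170 CPM (155 to 186). OPC-like cells followed with 134 and 135 CPM of Ncstn and meningeal or fibroblast-like cells with 139 and 113 CPM, and the neuron-like classes and oligodendrocyte-like cells lay between 73.8 and 86.3 CPM. Of the secretase genes, Bace1 was thus lowest and Ncstn highest in the same class, microglia-like cells.

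Itm2b, the BRI2 gene, was also highest in microglia-like cells, with 3265 CPM (3201 to 3329) in the control and 3160 CPM (3094 to 3227) in the tomatidine library. Meningeal or fibroblast-like cells had 1919 and 1800 CPM, endothelial-like cells 1560 and 1632 CPM, and oligodendrocyte-like cells 1499 and 1441 CPM of Itm2b. Interneuron-like cells were lowest with 910 and 959 CPM. Thalamic or other subcortical neuron-like cells had 952 CPM in the control and 1182 CPM in the tomatidine library, a log2 ratio of 0.31 (0.27 to 0.35).

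Mapt, the tau gene, was higher in oligodendrocyte-like cells than in any neuron-like class, at 712 CPM (700 to 724) and 662 CPM (649 to 675). Interneuron-like cells had 343 and 320 CPM of Mapt, the thalamic or other subcortical class 318 and 313 CPM, and excitatory neuron-like cells 263 and 253 CPM. Astrocyte-like cells had 241 and 230 CPM. In microglia-like cells the level was 135 and 122 CPM, and in endothelial-like cells 142 and 120 CPM. Per cell the mean of Mapt was 5.70 and 5.17 UMIs in excitatory neuron-like cells and 4.58 and 4.21 in oligodendrocyte-like cells. In each cell thinned to 1500 UMIs, leaving out shallower cells, a Mapt UMI was expected in 65.0% and 63.8% of oligodendrocyte-like cells, against 31.3% and 30% of excitatory neuron-like and 17.3% and 14.6% of microglia-like cells. Without thinning these shares were 93.0% and 91.7%, 90.7% and 90.6%, and 33.3% and 27.6%, at median depths of 5346 and 4907, 15947 and 15066, and 3090 and 2888 UMIs.

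Low levels bear a share of RNA from other cells. The summed CPM of 10 excitatory neuron markers in microglia-like cells was 27.3% and 29.1% of their level in excitatory neuron-like cells. On the same scale App in microglia-like cells was at 39.3% and 45.9%, Mapt at 51.2% and 48.1%, and Bace1 at 30.5% and 26.9%, so Bace1 was not above this gauge in both libraries. In astrocyte-like cells the same markers were at 58.6% and 60.8% of the excitatory level, App was below them at 50.2% and 44.7%, and Bace1 was close to them at 60.8% and 57.7%, so neither level stood above this gauge in both libraries. In oligodendrocyte-like cells the markers were at 14.6% and 18.6% of the excitatory level, while App was at 241% and 224%, Aplp1 at 346% and 336% and Mapt at 271% and 262%. The gauge covers excitatory neuron RNA only. Oligodendrocyte markers summed to 4289 and 3756 CPM in microglia-like and to 7745 and 6304 CPM in astrocyte-like cells. App, Aplp1, Bace1 and Mapt were highest in oligodendrocyte-like cells, so a level above the gauge can still be carried-over RNA. How much of each low level is carried-over RNA was not tested.

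**Figure D1:**
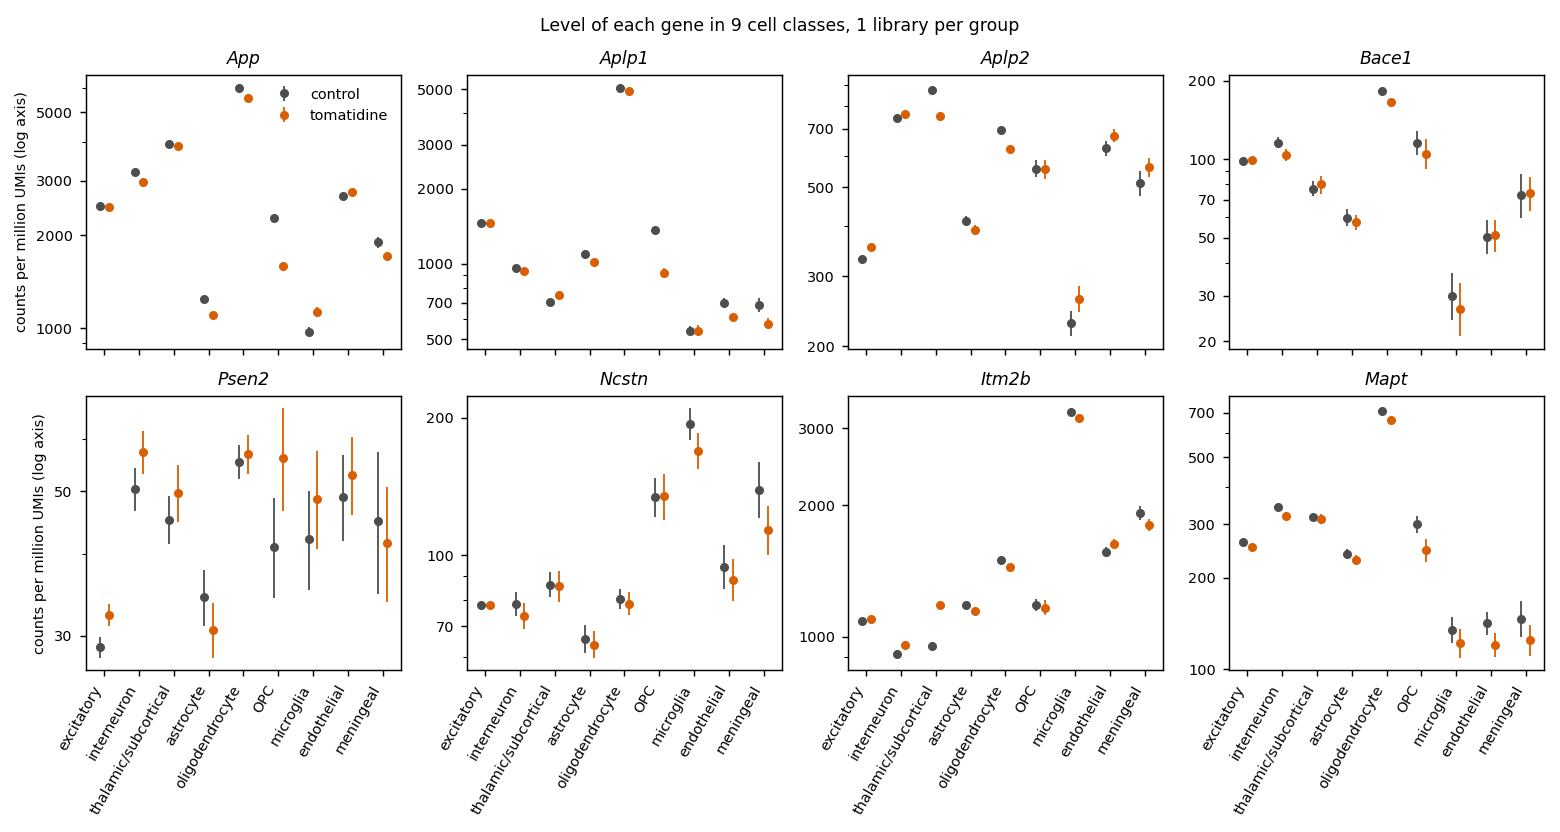
Level of the 8 genes in 9 cell classes, in CPM on a log axis, with 1 point per library (grey, control; orange, tomatidine) and exact 95% Poisson intervals. App, Aplp1, Bace1 and Mapt peaked in oligodendrocyte-like cells (App at 5990 and 5539 CPM), and Itm2b and Ncstn in microglia-like cells (Itm2b at 3265 and 3160 CPM).

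Excitatory neuron-like cells differed among themselves. App was 1708 and 1629 CPM in the granule subtype, 3314 and 3172 CPM in the CA1 subtype and 3572 and 3309 CPM in the CA3 subtype, so both pyramidal subtypes stood well above the granule cells in each library. The deep-layer or subicular subtype had 2870 and 2885 CPM of App. Aplp1 varied less among these 4 subtypes, from 1237 and 1325 CPM in the deep-layer or subicular subtype to 1614 and 1611 CPM in the granule subtype. Itm2b was highest in the CA1 subtype, at 1756 and 1825 CPM, against 977 and 990.2 CPM in the granule and 1004 and 1046 CPM in the CA3 subtype, and lowest in the deep-layer or subicular subtype, at 723 and 756 CPM. Aplp2 was highest in the CA3 subtype, at 472 and 460 CPM, and lowest in the CA1 subtype, at 242 and 260 CPM. Mapt was 232 and 212 CPM in the granule, 236 and 229 CPM in the CA1 and 314 and 305 CPM in the CA3 subtype, and it was highest in the deep-layer or subicular subtype, at 342 and 328 CPM.

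Counted over the library, a class's share of a gene's UMIs could differ from its share of all UMIs. Oligodendrocyte-like cells were 20.3% of control cells and gave 9.55% of all UMIs, yet they gave 29.5% of the Aplp1, 21.4% of the Mapt and 19.2% of the App UMIs. Excitatory neuron-like cells gave 47.8% of all UMIs and 39.9% of the App UMIs. Microglia-like cells gave 1.502% of all UMIs, 4.26% of the Itm2b and 3.51% of the Ncstn UMIs, and 0.492% of the App UMIs. In the tomatidine library, with fewer oligodendrocyte-like cells, these cells gave 7.53% of all UMIs, 24.2% of the Aplp1, 16.4% of the Mapt and 14.6% of the App UMIs.

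**Figure D2:**
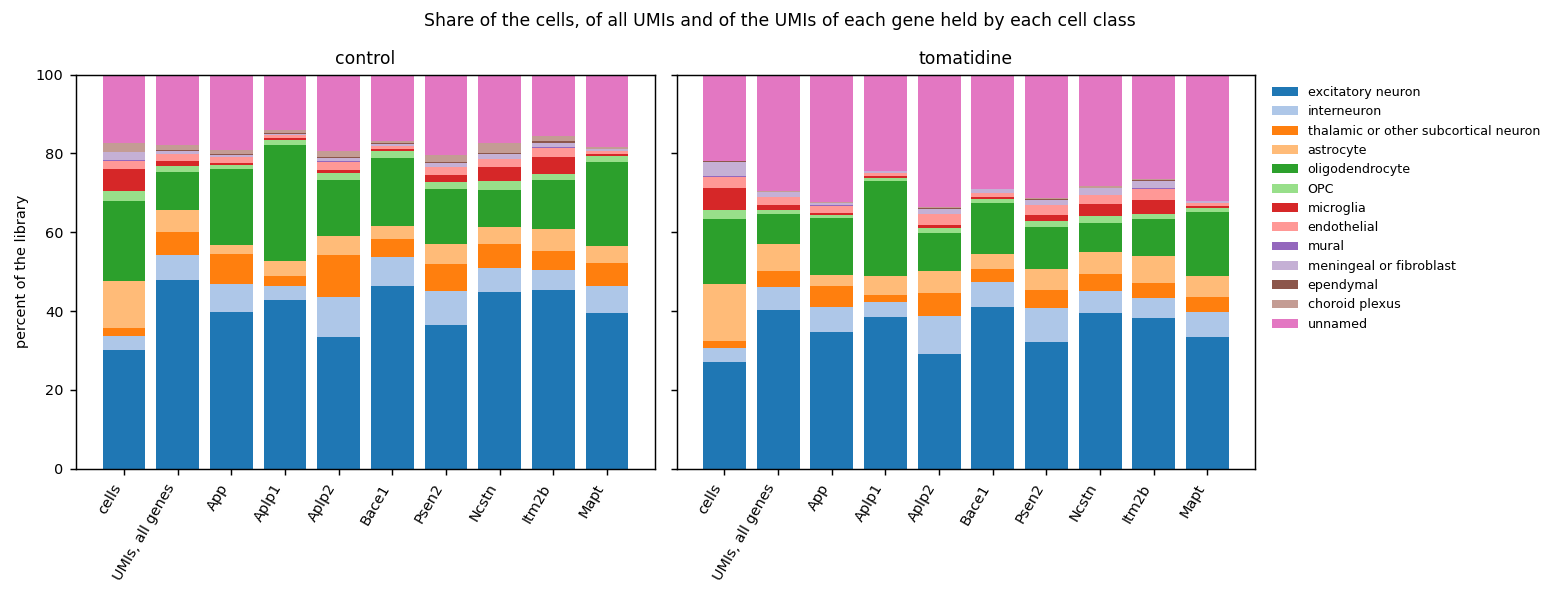
Stacked bars give the percent of each library's cells, of all UMIs and of the UMIs of each of the 8 genes that fell in each class, with control left and tomatidine right. Oligodendrocyte-like cells gave 29.5% and 24.2% of the Aplp1 UMIs, against 9.55% and 7.53% of all UMIs.

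Profiles over the 9 classes, as Pearson correlations of log2 CPM averaged over both libraries, are a description over 9 points that share 2 libraries and their free RNA. Among the 8 genes, Mapt was most like Aplp1 (r = 0.86) and Bace1 (r = 0.85), and App was most like Aplp2 (r = 0.76) and Bace1 (r = 0.74). Itm2b was most like Ncstn (r = 0.77) and least like Bace1 (r = -0.67). Of 12500 genes compared, those most like App were Get4 (r = 0.93), Rbm17 (r = 0.92) and Gnpnat1 (r = 0.91). Those most like Aplp1 were Kctd3, Kctd13 and Tex2 (r = 0.98 each), and those most like Mapt were Elavl3 (r = 0.99), Nipa1 (r = 0.98) and Gnai1 (r = 0.97). For Bace1 they were Capn5 (r = 0.96), Trub2 and Hid1 (r = 0.95 each), for Ncstn Pdia3, Zup1 (r = 0.98 each) and Nufip2 (r = 0.97), and for Itm2b Ang (r = 0.99), Tmem14c (r = 0.98) and Rnase4 (r = 0.97). Sec62 (r = 0.93), Gpatch11 (r = 0.92) and Hs3st1 (r = 0.89) were most like Aplp2, and Mtss1 (r = 0.90), Med30 and Pxk (r = 0.88 each) most like Psen2.

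Tomatidine was then compared with control, taking a gene as past the threshold when its CPM ratio was at least 1.2-fold in either direction with at least 20 UMIs over both libraries. In the whole library 0 of the 8 genes were past it, where 14.5% of all 15710 genes tested were higher and 8.4% lower. The largest decline was that of Aplp1, from 1639 to 1521 CPM (log2 ratio -0.11, -0.12 to -0.10). The largest rise was that of Psen2, from 37.7 to 40.4 CPM (0.10, 0.05 to 0.14). App went from 2980 to 2852 CPM (-0.06, -0.07 to -0.06), Mapt from 318 to 305 CPM (-0.06, -0.08 to -0.05) and Itm2b from 1150 to 1153 CPM (0.00, 0.00 to 0.01). Bace1 at 101 and 97.4 CPM, Ncstn at 82.8 and 79.0 CPM and Aplp2 at 473 and 488 CPM had ratios between -0.07 and 0.04. With both libraries weighted to the same mix of classes the Aplp1 ratio was -0.04, that of App -0.05 and that of Mapt -0.06. Unnamed clusters gave 17.8% of all UMIs in the control and 29.5% in the tomatidine library. Weighted to the same mix of clusters, the ratio was -0.01 for Aplp1, -0.08 for App and -0.09 for Mapt. That of Aplp2 turned from 0.04 to -0.01. With this mix Bace1 was at -0.04, Psen2 at 0.06, Ncstn at -0.03 and Itm2b at 0.05. In whole-library sums alone, fewer cells of a type and less of a gene's RNA within them cannot be told apart. Ratios within classes follow.

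In the 7 classes followed through, 4 of the 56 combinations of gene and class were past 1.2-fold, and all 4 were in OPC-like cells. Over all genes tested, the share past it in either direction ran from 19.6% in astrocyte-like to 33.5% in OPC-like cells. In the other two classes described, which were not followed through the alternatives, Itm2b was higher in the thalamic or other subcortical class, where 21.2% of all genes were higher and 7.47% lower. Ncstn was lower in meningeal or fibroblast-like cells, at 139 and 113 CPM (-0.30, -0.56 to -0.02), where 16.8% of all genes were higher and 23.0% lower. Excitatory neuron-like cells had 0 of 8 genes past it, with 16.5% of all genes higher and 3.75% lower there. App, at 2484 and 2469 CPM, had a ratio of -0.01 (-0.02 to 0.00) in them and Aplp1 one of -0.01 (-0.02 to 0.01) there. Aplp2 was 0.10 (0.07 to 0.12) and Psen2 0.16 (0.09 to 0.24) in the same cells, next to a median of 0.05 over all genes, and Mapt was -0.05 (-0.08 to -0.03). Interneuron-like cells also had 0 of 8, with 15.8% higher and 5.97% lower over all genes. Their ratios ran from -0.16 for Bace1 to 0.19 for Psen2 (0.03 to 0.34), with App at -0.10 (-0.12 to -0.08).

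Astrocyte-like cells had 0 of 8 past 1.2-fold, where 10.0% of all genes were higher and 9.57% lower. All 8 genes had ratios below 0 there, from -0.04 for Ncstn to -0.17 for App (-0.21 to -0.14), beside a median of 0.01 over all genes, and App, Psen2 and Itm2b were the genes whose ratio stayed below 0 under all 12 alternatives. The 18 oligodendrocyte markers summed to 7745 CPM in the control and 6304 CPM in the tomatidine astrocyte-like cells, with 15 of them lower. In the astrocyte-like cells that held more UMIs of astrocyte than of oligodendrocyte markers, App went from 1081 to 1020 CPM (-0.08, -0.12 to -0.05). The part of these markers in the App ratio was not tested. The App level of all astrocyte-like cells was below the gauge of carried-over excitatory neuron RNA. Oligodendrocyte-like cells, the class with the highest App level, had 0 of 8 past it, with 19.5% higher and 5.61% lower over all genes. Of their 8 ratios 7 were below 0, from -0.04 for Ncstn to -0.16 for Aplp2 (-0.20 to -0.12), and App was at -0.11 (-0.13 to -0.10), Mapt at -0.10 (-0.14 to -0.07) and Aplp1 at -0.05 (-0.06 to -0.04). The median over all genes in these cells was 0.06, and the summed oligodendrocyte markers were 70333 and 65425 CPM.

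Microglia-like cells had 0 of 8 past it, with 20.9% higher and 11.0% lower over all genes. App was 976 CPM (942 to 1012) in the control and 1133 CPM (1093 to 1173) in the tomatidine library, a ratio of 0.21 (0.14 to 0.29), and Ncstn went from 194 to 170 CPM (-0.19, -0.37 to -0.01). The App ratio was 0.34 (0.22 to 0.46) in 1 of their clusters, number 18, from 1388 to 1761 CPM, and 0.03 (-0.06 to 0.12) in the other, number 7, from 860 to 877 CPM. Cells of cluster 18 were shallow, with a median of 1356 UMIs. In microglia-like cells the microglia markers summed to 52946 and 47631 CPM and the astrocyte markers to 3653 and 4452 CPM, with 13 of 14 astrocyte markers higher. The oligodendrocyte markers went the other way there, at 4289 and 3756 CPM, with 16 of 18 lower. What part any of these marker lists has in the App ratio was not tested. The App ratio was 0.09 (0.01 to 0.17) with 10% of cells removed as doublets, 0.00 as a mean over cells and 0.08 (0.02 to 0.14) under a marker gate, and turned to -0.13 (-0.19 to -0.07) under that gate on all deposited cells, an alternative chosen after seeing the data. Endothelial-like cells had 0 of 8, with 16.7% higher and 14.1% lower over all genes. In them Mapt went from 142 to 120 CPM (-0.24, -0.42 to -0.05), Aplp1 from 700.0 to 614 CPM (-0.19, -0.27 to -0.11) and App from 2677 to 2768 CPM (0.05, 0.01 to 0.09). The oligodendrocyte markers in these cells summed to 4493 and 3718 CPM, with 17 of 18 lower, and the astrocyte markers to 8412 and 6131 CPM, with 14 of 14 lower. Markers of mural cells (pericytes and vascular smooth muscle) summed to 6601 and 8044 CPM, with 8 of 11 higher, beside 11443 and 12669 CPM for the endothelial markers. The levels of this class thus hold mural RNA as well. In endothelial-like cells with more endothelial than oligodendrocyte marker UMIs, Mapt was 108 and 104 CPM (-0.06, -0.29 to 0.17) and Aplp1 532 and 493 CPM (-0.11, -0.21 to -0.01). The part of these markers in the Mapt and Aplp1 ratios was not tested. The direction turned for Mapt under the marker gate (0.12, -0.42 to 0.68, on 127 UMIs) and for Aplp1 with the stricter cell filter (0.09, -0.05 to 0.23).

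**Figure D3:**
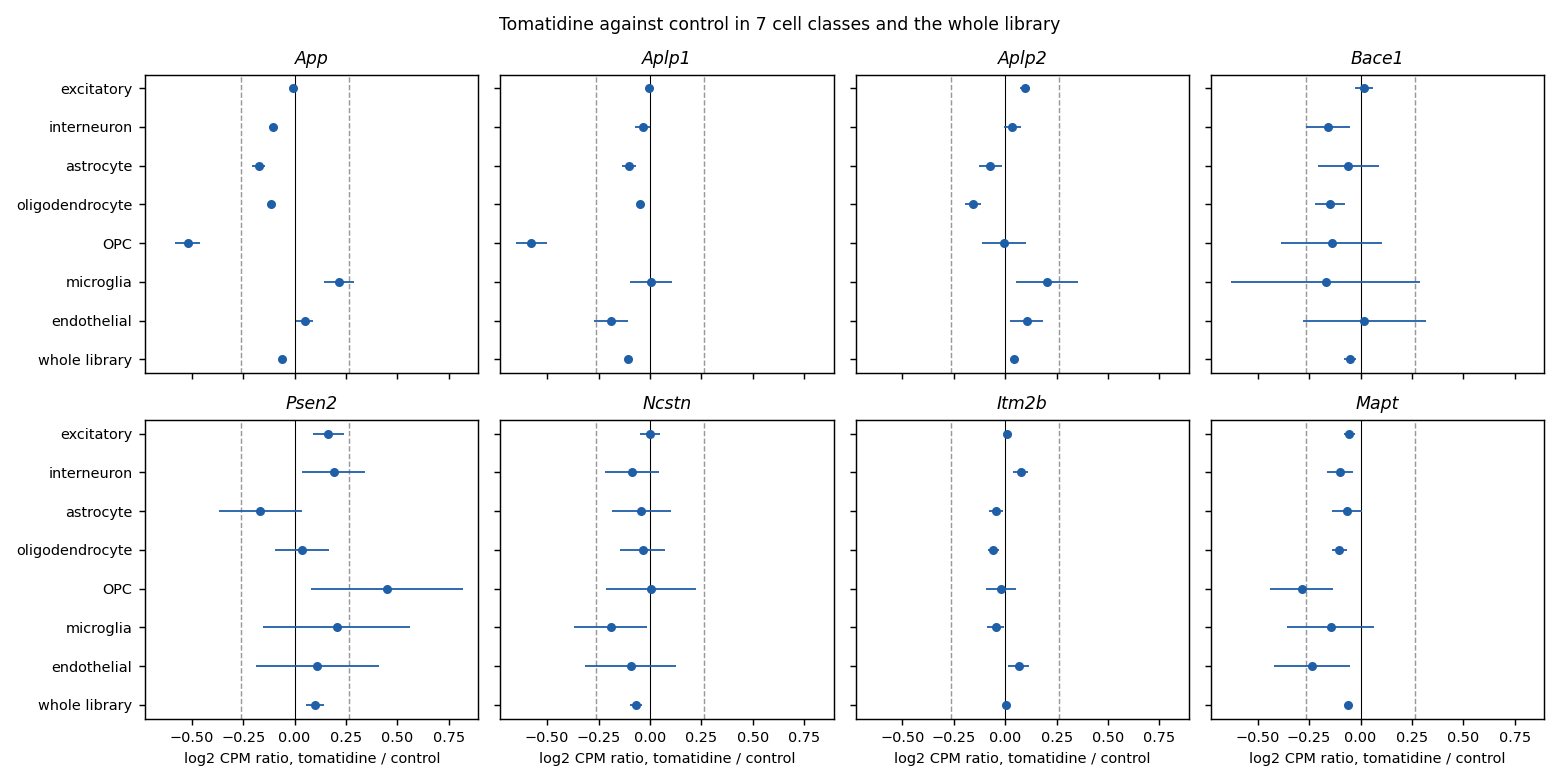
Log2 CPM ratio of tomatidine over control for each gene in 7 cell classes and in the whole library, with exact 95% conditional intervals for counting error. Dashed lines mark 1.2-fold, and the points beyond them are those of App (-0.52), Aplp1 (-0.58), Mapt (-0.29) and Psen2 (0.45) in OPC-like cells.

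In OPC-like cells Aplp1 was 1368 CPM (1328 to 1410) in the control and 918 CPM (878 to 959) in the tomatidine library, a ratio of -0.58 (-0.65 to -0.50). App went from 2281 CPM (2228 to 2335) to 1590 CPM (1538 to 1644), a ratio of -0.52 (-0.58 to -0.46), and Mapt from 301 to 246 CPM (-0.29, -0.44 to -0.13). Psen2 went the other way, from 41.0 CPM on 127 UMIs to 56.1 CPM on 123 UMIs (0.45, 0.08 to 0.82). Thus 3 of 8 genes were lower and 1 higher past 1.2-fold, where 14.8% of all 11802 genes tested in these cells were lower and 18.7% higher. Aplp2 at 557 and 554 CPM, Ncstn at 134 and 135 CPM and Itm2b at 1183 and 1165 CPM had ratios between -0.02 and 0.00, and Bace1 went from 116 to 105 CPM (-0.14, -0.39 to 0.10).

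The oligodendrocyte markers also differed between the libraries in these cells. All 18 were lower in the tomatidine OPC-like cells, and none was at 0; they summed to 15815 CPM in the control and 9165 CPM in the tomatidine library, a ratio of -0.79 (-0.81 to -0.76), while all 9 OPC markers were higher, at 9044 and 10458 CPM. The 3 genes that were lower there had their highest level in oligodendrocyte-like cells, as did Bace1 and, averaged over both libraries, Psen2. When only OPC-like cells with more UMIs of OPC than of oligodendrocyte markers were counted, which left 254 of 380 control and 262 of 348 tomatidine cells, the oligodendrocyte markers were at 2458 and 2431 CPM. In those cells Aplp1 was 524 and 502 CPM (-0.06, -0.20 to 0.07), App 1329 and 1190 CPM (-0.16, -0.25 to -0.07) and Mapt 216 and 181 CPM (-0.26, -0.48 to -0.04). No gene was lower past 1.2-fold, which is a log2 ratio of 0.263 in either direction. Mapt, at -0.256, was just short of it and close to its ratio of -0.29 in all OPC-like cells. Psen2 was 43.0 and 61.9 CPM in the cells kept (0.53, 0.09 to 0.97). These cells were picked by the same markers, so the marker levels in them follow in part from the choice. What part oligodendrocyte RNA or the kind of cell removed has in these ratios was not tested. The Aplp1 ratio in OPC-like cells was -0.30 with a stricter cell filter, -0.32 with 10% of cells removed as doublets, -0.35 as a mean over cells, and 0.02 (-0.29 to 0.33) on 357 UMIs when cells were assigned by a marker gate. That gate gave only 76 control and 101 tomatidine OPC-like cells, against 380 and 348.

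**Figure D4:**
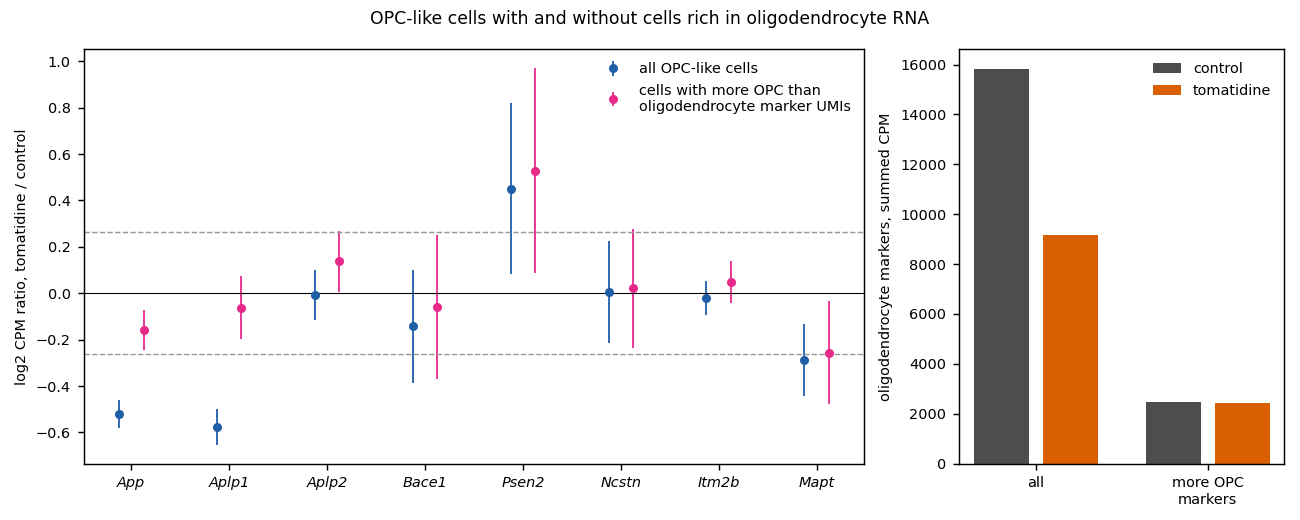
Left, log2 CPM ratio of tomatidine over control in OPC-like cells, for all cells (blue) and for cells with more OPC than oligodendrocyte marker UMIs (pink), with exact 95% intervals and dashed lines at 1.2-fold. Right, summed CPM of the 18 oligodendrocyte markers in the same cells: 15815 and 9165 CPM in all cells, 2458 and 2431 CPM in those kept. Cells were kept by these markers, so the levels in those kept follow in part from the choice.

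The 7 classes were made of 20 clusters, which share the libraries and are no replicates. Mapt was lower with tomatidine in 19 of the 20, from -0.49 in oligodendrocyte-like cluster 33 to 0.01, with a median of -0.12, and 13 intervals lay below 0. Of the 8889 genes with at least 20 UMIs in each of these clusters, 0.945% were lower in as many. App was lower in 14 of 20 and so were 15.3% of genes in as many or more, and Psen2 was higher in 15 of 20, as were 20.4% of genes. Cluster 33, with 54 and 43 cells, had App at 3995 and 2590 CPM (-0.63, -0.70 to -0.55) and Aplp1 at 3634 and 2442 CPM (-0.57, -0.65 to -0.50). Astrocyte-like cluster 26, with 142 cells in each library, had App at 1963 and 1522 CPM (-0.37, -0.43 to -0.30) and Aplp1 at 1617 and 1195 CPM (-0.44, -0.51 to -0.36). In both the summed oligodendrocyte markers were lower as well, at 40417 and 17163 CPM in cluster 33 and 19566 and 11881 CPM in cluster 26. The share of the App and Aplp1 ratios that goes with these markers was not tested.

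**Figure D5:**
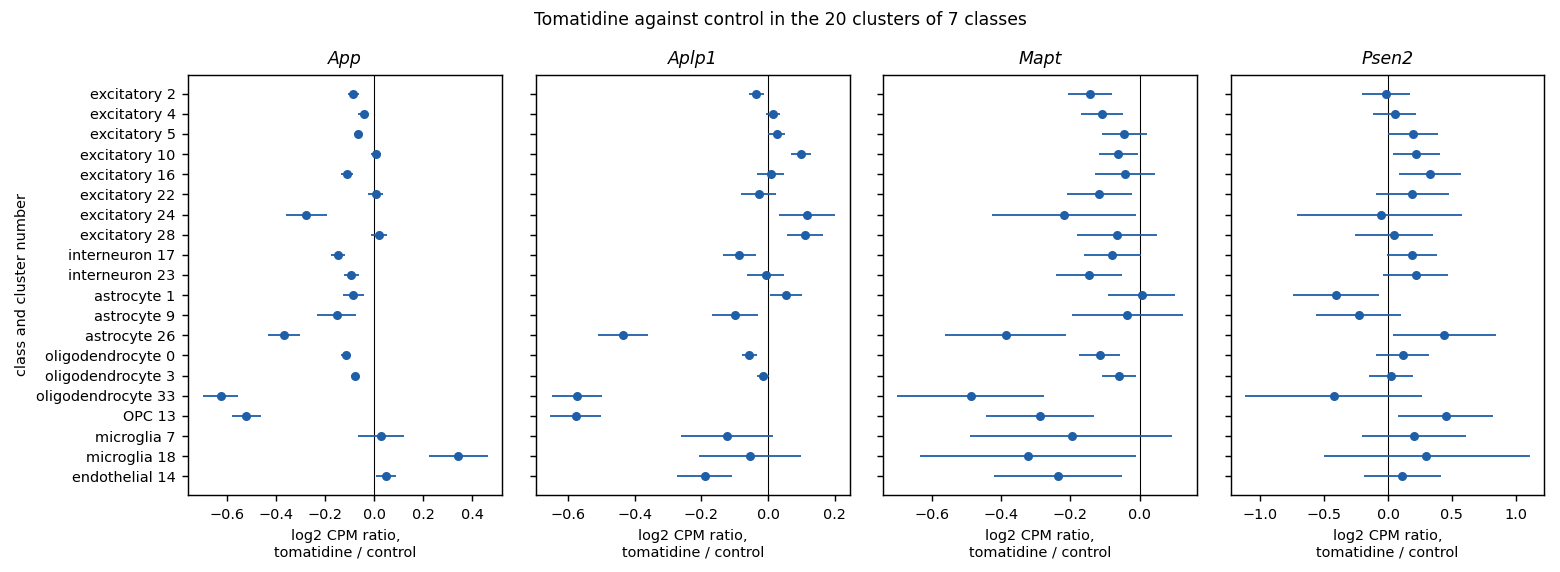
Log2 CPM ratio of tomatidine over control for App, Aplp1, Mapt and Psen2 in the 20 clusters of 7 classes, 1 point per cluster with an exact 95% interval; the horizontal scales differ between panels. Mapt lay below 0 in 19 of 20 clusters, and App and Aplp1 lay lowest in oligodendrocyte-like cluster 33 and OPC-like cluster 13.

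Other genes of the pathway were read from a list of 58, of which 57 were measured. In the whole library 4 of 57 were past 1.2-fold and higher and 0 lower, beside 14.5% and 8.4% of all genes. Mme, the gene of neprilysin, a peptidase that degrades amyloid-beta, went from 10.4 to 14.6 CPM (0.49, 0.41 to 0.57), and Ece2, an endothelin-converting enzyme, from 48.9 to 66.0 CPM (0.43, 0.40 to 0.47). Itm2a, a relative of Itm2b, went from 44.0 to 61.8 CPM (0.49, 0.45 to 0.53), and Ttbk2, a tau tubulin kinase, from 90.4 to 109 CPM (0.27, 0.24 to 0.30). The Itm2a ratio was -0.10 (-0.22 to 0.02) in excitatory neuron-like and 0.20 (0.15 to 0.25) in endothelial-like cells, where its level was 1608 and 1846 CPM. Endothelial-like cells were 2.01% of control and 2.90% of tomatidine cells, and their part in the whole-library value was not tested. In excitatory neuron-like cells 3 of 57 were higher and 0 lower, beside 16.5% and 3.75% of all genes, with Mme at 2.99 and 3.96 CPM (0.40, 0.17 to 0.64) and Sorcs1, a sorting receptor, at 16.1 and 20.7 CPM (0.37, 0.27 to 0.47). The gene of the catalytic subunit of phosphatase 2A, Ppp2ca, had the lowest ratio of the list there, -0.19 (-0.22 to -0.17). In interneuron-like cells 3 were higher and 1 lower of 57, beside 15.8% and 5.97% of all genes, and in astrocyte-like cells 3 and 0 of 57, beside 10.0% and 9.57%. Among the tau kinases and their activators 0 of 14 were past 1.2-fold in either direction in these 3 classes.

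In oligodendrocyte-like cells 12 of 57 were higher and 1 lower, near the 19.5% and 5.61% of all genes. The tau kinase Mark1 went from 17.6 to 27.6 CPM (0.65, 0.44 to 0.86), Mme from 2.38 to 3.84 CPM (0.69, 0.11 to 1.28) and Map2, a microtubule-associated protein of dendrites, from 161 to 202 CPM (0.32, 0.25 to 0.39). The excitatory neuron markers in these cells summed to 2424 and 2733 CPM, with 35 of 43 higher, and their part in these ratios was not tested. In OPC-like cells 4 of 55 were higher and 5 lower, beside 18.7% and 14.8% of all genes. Sort1, the sortilin receptor, went from 359 to 215 CPM (-0.74, -0.90 to -0.59), beside 1087 and 1000.4 CPM in oligodendrocyte-like cells, and Apbb1, an adaptor of the App tail, from 241 to 193 CPM (-0.32, -0.50 to -0.15). In microglia-like cells 9 of 55 were higher and 0 lower, beside 20.9% and 11.0% of all genes, all from under 700 UMIs in a library, among them Cdk5r2, an activator of the tau kinase CDK5, at 174 and 217 CPM (0.32, 0.15 to 0.50). In endothelial-like cells 5 of 57 were higher and 7 lower, beside 16.7% and 14.1% of all genes, with Cdk5r1, another activator, at 133 and 89.3 CPM (-0.57, -0.78 to -0.37) and Dab1, an adaptor of the App tail, at 88.7 and 52.8 CPM (-0.75, -1.01 to -0.49). The summed excitatory neuron markers in endothelial-like cells were 4944 and 4277 CPM, with 30 of 43 lower.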

How the data were processed

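Hippocampi of aged control and tomatidine-fed mice were profiled with a probe-based kit for fixed cells. The authors aligned reads to mm10 (Cell Ranger 7.1.0 per the file headers, 8.0.0 per the labels) and deposited counts: whole numbers of UMIs per gene and cell, not normalized. Here a cell was kept if it had 500 UMIs or more, over 250 genes, less than 20% mitochondrial UMIs, and log10(genes)/log10(UMIs) over 0.8. The 2% of cells with the highest Scrublet scores (scanpy 1.11.5) were removed, since Scrublet's own threshold called 0 and 2 cells. These steps left 206744516 of 279525565 control UMIs and 200551962 of 259059908 tomatidine UMIs. They kept 15115 of 15912 and 14502 of 15185 cells, so the cells removed were deeper on average than those kept. Means per cell and shares of UMIs hold for the kept cells only. Seurat 5.3.0 was used for RPCA integration and clustering (2000 variable genes, 30 components, resolution 0.8) with 72 genes left out, the 8 genes described among them.

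Clusters were named, as "-like", for the class with most raised markers (2-fold, in 10% of cells), at least 3 of them and at least 1 among the 10 leading genes, with no other class ahead there. The naming rule was made with the clusters in view, and the names are not the study's. The genes, the lists and the classes were chosen with earlier results of these data known. The 8 genes are named in every class, with the 3 genes most like each. From each group of the pathway list, genes with the highest or lowest ratio among those with at least 100 UMIs are named, and Ece2 was added after its values were seen.

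UMIs were summed per library and class. Sums have exact Poisson intervals and log2 CPM ratios have conditional binomial ones, also exact, and with 1 library per group no p-value is given. The ratio and its interval were run on simulated Poisson counts, which checks the code only, since the intervals assume such counts. Spread between mice or cells, class assignment and carried-over RNA were not simulated. TMM factors were from edgeR 4.0.16. Python 3.11.15, numpy 2.4.6, scipy 1.17.1, pandas 2.3.3, matplotlib 3.10.9 and R 4.3.3 were used. Positions and sequences are from GENCODE mouse M21. Alternatives covered the cell filter, doublets, scaling, the UMI minimum, clustering, a marker gate, class mix and cells rich in oligodendrocyte RNA. The marker gate named a cell for the class with most markers detected, without correcting for the length of the lists. Of the markers measured, 43 were of excitatory neurons and 9 of OPC. The gate gave 7354 and 7276 excitatory neuron-like cells, against 4562 and 3947 by clusters.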

Additional observations from a re-analysis of the deposited data

How the results depend on the processing

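In the whole library 0 of 8 genes were past 1.2-fold under each of the 10 settings run, the count of all deposited cells included, which was chosen after seeing the data. Summed over the 7 classes, the count of genes higher with tomatidine was 1, and it was 4 with the stricter cell filter (at most 6000 genes, under 10% mitochondrial UMIs), 3 with the mean over cells, 4 with the marker gate and 3 with that gate on all deposited cells. The count lower was 3, and it was 1 with the marker gate, 1 with that gate on all deposited cells and 0 with only cells that held more own than oligodendrocyte markers. In this last setting Mapt in OPC-like cells was just short of 1.2-fold. The last 2 settings were chosen after seeing the data. The share of all genes past 1.2-fold was computed for the main setting only, so these counts have no such share beside them. The log2 ratio of Aplp1 in OPC-like cells, -0.58, became 0.021 (-0.29 to 0.33) under the marker gate, with or without the cell filter, on 357 UMIs, and lay between -0.61 and 0.02 over 12 alternatives. There the ratio of App stayed below 0, between -0.55 and -0.16, that of Mapt between -0.33 and -0.21, and that of Psen2 above 0, between 0.35 and 0.54. Other scalings shifted a class by at most 0.06. The gate's order was compared over the classes with at least 50 cells in each library under both assignments. These are the 7 classes and meningeal or fibroblast-like cells, without the thalamic or other subcortical class. The highest class of 7 of 8 genes was the same, and that of Psen2 became interneuron-like cells, with 60 control and 59 tomatidine cells by the gate. For Bace1, Psen2 and Ncstn depth limits what small classes can show. No paired analysis was possible because each group is 1 library.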
